A study of Homo sapiens with 4 samples.

Results

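Ubiquitin-specific proteases are enzymes that cut ubiquitin from other proteins, and their mRNAs were examined here among the RNAs recovered with IGF2BP3 in OE-19 cells. The members were chosen by name: all protein-coding genes of GENCODE release 44 whose symbol is USP followed by a number, without the USP17L copies. This gave 52 genes of 20033. The peaks of a member were those whose summit, the position of highest signal, lay in one of its exons. Replicate 1 had 367 such peaks of 44622 in all and replicate 2 had 363 of 42723, a mean of 365 ± 2.83 (SD, n = 2). One member fits the rule by name alone: USP6NL is named after its resemblance to USP6, but its product is a GTPase-activating protein for Rab proteins and has no protease domain.

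OE-19 is a long-established human tumor line, derived from an adenocarcinoma at the junction of esophagus and stomach. The study made RNA immunoprecipitation libraries (RIP-seq, in which an antibody pulls a protein out of the lysate and the RNA that comes along is sequenced) with an antibody to IGF2BP3 in 2 replicates, beside 2 input libraries made without antibody. All 4 samples were of OE-19 cells for which no treatment is given, and UV fixing of the cells before lysis is given in the sample labels for all of them, whereas the RIP methods of the study describe no UV step. The 2 RIP peak lists were analysed. No input list was, so that the amount of each mRNA in the cells is not known from these data. Read depth is also unknown, and a gene without a peak cannot be told apart from one whose mRNA is rare in these cells. The study calls its RIP replicates biological, and the spread given here is that between these 2 libraries.

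Ubiquitin is attached to proteins by a relay of E1, E2 and E3 enzymes, and deubiquitinases reverse the reaction, which can spare a protein from the proteasome or change its traffic or activity. The USP enzymes are the largest family of deubiquitinases. They share a catalytic domain that begins near a cysteine box, which holds the cysteine that attacks the bond, and ends near a histidine box, and they differ in the often long sequences around it. IGF2BP3 is a cytoplasmic RNA-binding protein, mostly silent in adult tissue and present in many tumors, which binds mRNAs and is known to affect their stability.

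Stretches of coding exons under the strongest USP peaks are shown as sequences. Each is the part of the exon that the peaks of either replicate covered, which is the whole exon in USP6NL exons 11 and 14, USP8 exons 15 and 18 and USP34 exon 66, and a part of it in the others. The first 3 are shown because a peak with a q of at most 0.05 stood in the same exon in both replicates. The q is the p-value of the authors' peak caller after correction for multiple testing. Sequences are those of the mRNA strand in GRCh38 (hg38), 5′ to 3′. In USP34 and USP6NL, the capitals mark the summit of each replicate with 5 nt on either side. In USP8 they mark the codons of the cysteine box of the catalytic domain.

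USP34 exon 2, chr2:61420746-61420827, minus strand: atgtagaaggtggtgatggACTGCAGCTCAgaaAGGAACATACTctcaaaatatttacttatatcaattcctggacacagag
USP6NL exon 11, chr10:11485817-11485911, minus strand: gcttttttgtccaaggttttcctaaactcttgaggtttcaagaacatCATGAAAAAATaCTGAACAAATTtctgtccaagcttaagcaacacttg
USP8 exon 15, chr15:50492701-50492913, plus strand: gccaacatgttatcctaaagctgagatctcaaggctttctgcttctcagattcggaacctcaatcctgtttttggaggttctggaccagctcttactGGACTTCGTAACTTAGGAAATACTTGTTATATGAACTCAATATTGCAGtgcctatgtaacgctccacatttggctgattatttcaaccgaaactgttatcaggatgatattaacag

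In USP34 exon 2, where the stretch shown spans codons 17 to 44, the fold enrichment was 4.45 in replicate 1 (q = 0.0105) and 4.88 in replicate 2 (q = 0.0142), and the summits were 14 nt apart. The fold enrichment is the caller's ratio of RIP signal to background at the summit. In USP6NL exon 11, codons 222 to 253, it was 4.57 (q = 0.0225) and 5.67 (q = 6.32e-05), with summits 12 nt apart. In USP8 exon 15, codons 745 to 816, it was 5.61 (q = 0.00126) and 5.06 (q = 0.00469). The USP8 summits were 137 nt apart, and the peaks overlapped without sharing their ends. Both peaks covered the whole cysteine box. There were 4 such places in all, in 3 genes. The other one spanned USP34 exons 40 and 41, with the summit of replicate 1 in exon 40 (codon 1760) and that of replicate 2 in exon 41 (codon 1793), and folds of 6.55 and 4.93.

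The next sequences are the peak-covered stretches of the exons with the highest fold of USP54, USP6NL, USP34 and USP8 in either list, with the summits in capitals as above. They show how far a peak of high fold in one replicate was matched in the other.

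USP54 exon 22, chr10:73504867-73504990, minus strand: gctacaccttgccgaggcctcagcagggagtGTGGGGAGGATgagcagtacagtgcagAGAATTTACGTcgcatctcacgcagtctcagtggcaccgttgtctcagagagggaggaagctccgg
USP6NL exon 14, chr10:11481770-11481922, minus strand: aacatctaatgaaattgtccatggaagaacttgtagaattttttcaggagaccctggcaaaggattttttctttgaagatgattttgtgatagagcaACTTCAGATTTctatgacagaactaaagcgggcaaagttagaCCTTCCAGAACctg
USP34 exon 66, chr2:61221502-61221606, minus strand: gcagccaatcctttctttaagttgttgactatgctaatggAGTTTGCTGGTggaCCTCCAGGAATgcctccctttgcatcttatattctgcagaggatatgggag
USP8 exon 18, chr15:50497089-50497231, plus strand: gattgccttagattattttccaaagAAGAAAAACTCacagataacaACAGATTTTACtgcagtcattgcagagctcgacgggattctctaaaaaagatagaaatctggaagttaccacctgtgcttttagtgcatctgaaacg

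USP54 exon 22 held the highest fold of all USP peaks, 7.74 in replicate 1 (q = 7.91e-06), whereas the replicate 2 peak in the same exon had a fold of 2.62 and a q of 1. USP6NL exon 14 held the highest fold of replicate 2, 7.20 (q = 1.35e-05), and had 2.64 in replicate 1, again with a q of 1. In USP34 exon 66 the folds were 7.33 and 3.81, and in USP8 exon 18 they were 6.27 and 2.45. Each of these exons thus had a peak in both replicates, while its height differed between them. The summits of USP54 exon 22 and USP8 exon 18 also lay in exons of PPP3CB-AS1 and USP50, which run on the opposite strand. The peak lists carry no strand, so that the genes cannot be told apart there.

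A peak with an exonic summit was found in both replicates for 35 of the 52 USP genes, or 67.3%, compared with 28.0% of all protein-coding genes. A single peak in one replicate was found for 4 more. The peak of USP1, which removes ubiquitin from FANCD2 and PCNA, was in replicate 2 alone, as were those of USP18, the protease of the ubiquitin-like protein ISG15, and USP21, and the peak of USP20 was in replicate 1 alone. The remaining 13 genes had no peak in either list. These were USP5, USP6, USP11, USP13, USP19, USP26, USP27X, USP29, USP43, USP44, USP45, USP51 and USP9Y. In 28 of the 35 genes at least 1 peak overlapped a peak of the other replicate. In the other 7, namely USP10, USP14, USP15, USP16, USP35, USP39 and USP47, no peak did, so that these were found in both lists as genes but not as sites.

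USP mRNAs are long, and longer mRNAs had peaks more often. The median coding sequence (CDS) was 2763 nt in the USP genes and 1281 nt in all protein-coding genes. Of the 6 members with a CDS of under 1500 nt, 4 had peaks in both replicates, compared with 17.5% of all genes of that length. From 1500 nt up to 3000 nt it was 13 of 24 members, or 54.2%, compared with 38.9%. At 3000 nt and above it was 18 of 22, or 81.8%, compared with 52.8%. The share was above that of all genes in each of the 3 length classes, and the first class held 6 members only. USP50, with a CDS of 1002 nt, is among the 4 of that class, and all its summits also lay in exons of USP8. The median CDS was 3054 nt in the 35 members with peaks in both replicates and 2739 nt in the 13 without a peak, and the difference was not tested. Differences in mRNA amount between genes were not tested.

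**Figure D1:**
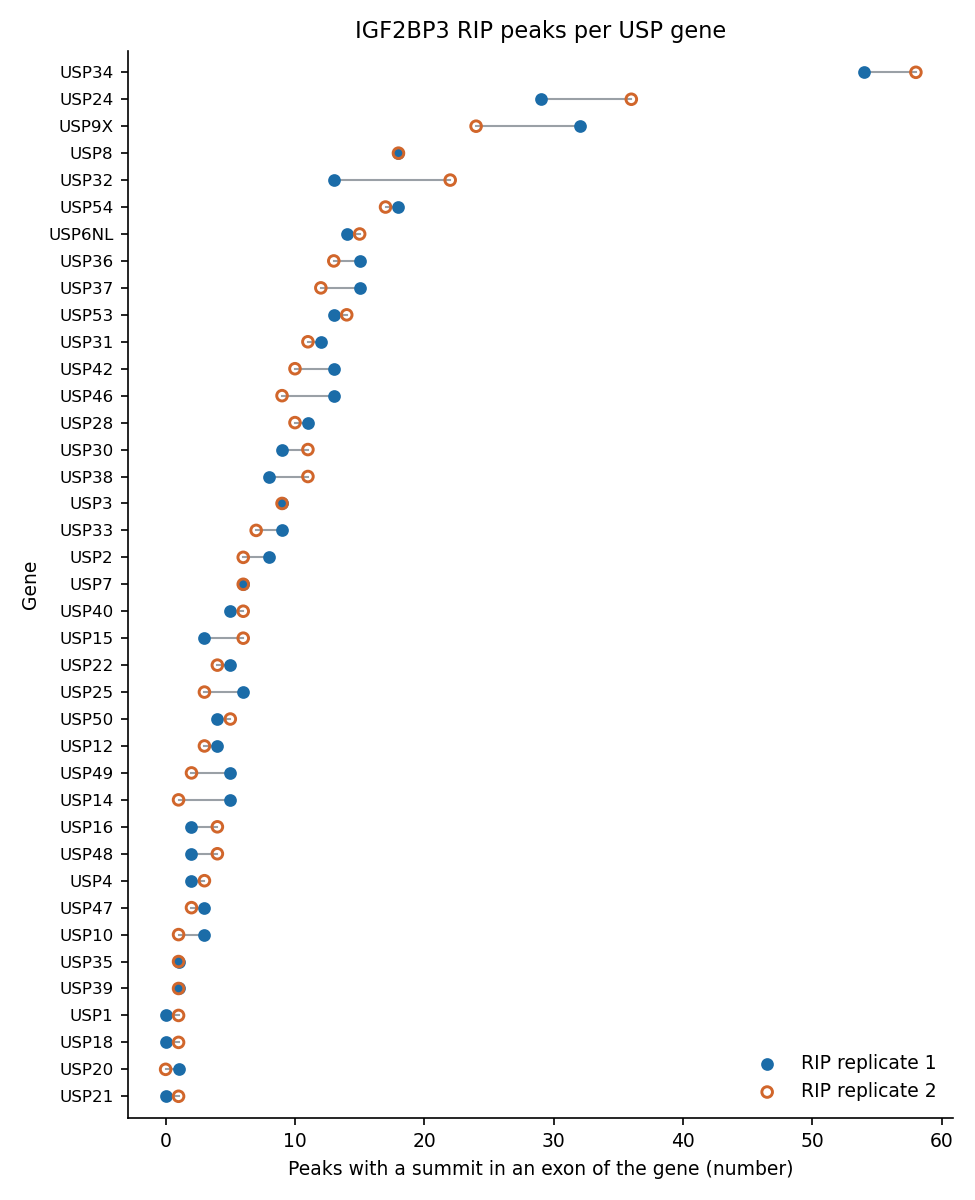
Number of peaks with a summit in an exon of the gene (x axis) for each of the 39 USP genes with a peak (y axis), with filled points for RIP replicate 1, open points for replicate 2 and a line between them. USP34 stands apart with 54 and 58 peaks, and 4 genes at the foot have 1 peak in 1 replicate only.

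The peaks were unevenly spread over the family. USP34, USP24 and USP9X, whose CDS are the longest among the members with peaks, held 115 peaks in replicate 1 (31.3%) and 118 in replicate 2 (32.5%). At least 5 summits in each replicate were found in 21 members, or 40.4%, compared with 13.2% of all protein-coding genes. This share was not matched for CDS length. Across the 35 genes in both lists, the number of peaks in replicate 1 went with that in replicate 2, with Pearson's r = 0.963 and Spearman's rho = 0.926. This is a correlation across genes, which are not independent replicates and share the libraries. The number of peaks also went with CDS length across the 39 genes with a peak (r = 0.861, rho = 0.552). Without the top 3 genes r was 0.487 (n = 36).

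**Figure D2:**
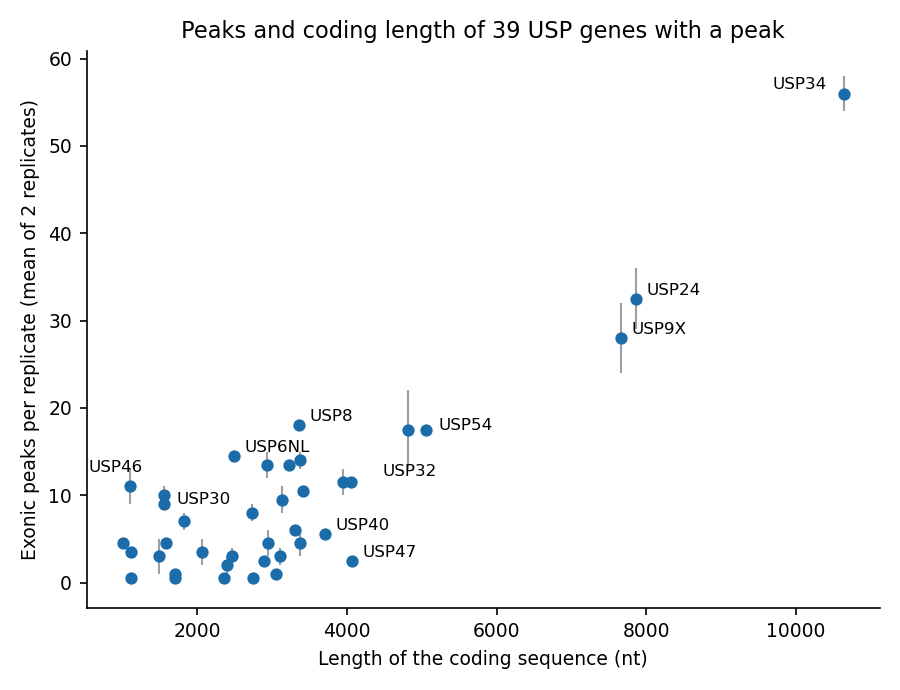
Length of the coding sequence in nt (x axis) and number of exonic peaks (y axis, point for the mean of 2 replicates, bar from one replicate to the other) for the 39 USP genes with a peak. USP34, USP24 and USP9X lie at the upper right, while USP47, with a CDS of 4065 nt, had 3 and 2 peaks and USP46, with 1098 nt, had 13 and 9.

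The members are next described in groups named after roles. The groups were set to order the text, a gene can have roles outside its group, and not each member has the role its group is named after. The counts of these small groups stand beside the 28.0% of all protein-coding genes with peaks in both replicates. They also stand beside the 4.93% with a q of at most 0.05 in both. Among the enzymes grouped as Wnt-related, large or cytoskeletal, 11 of 14 had peaks in both replicates, with 151 and 163 peaks in all. USP34, which is known to stabilize axin in the Wnt pathway, had 54 peaks in replicate 1 and 58 in replicate 2, of which 11 and 13 had a q of at most 0.05. By number of peaks it was rank 14 and rank 8 among all protein-coding genes. Of its peaks, 49 and 48 overlapped the other replicate. Summits stood in 53 and 58 of its 80 exons, and 44 exons had one in both lists. A few USP34 summits, 4 and 3, also lay in exons of its neighbor AHSA2P.

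USP24, another very large enzyme, had 29 and 36 peaks with highest folds of 4.77 and 5.92. Its strongest peak, at codons 879 to 903 in exon 24, was not found in replicate 1, as no peak had its summit in that exon. Its sequence is given with that of USP53 exon 8 because each was the strongest site of its gene and had no summit of the other replicate in the same exon.

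USP24 exon 24, chr1:55141658-55141731, minus strand: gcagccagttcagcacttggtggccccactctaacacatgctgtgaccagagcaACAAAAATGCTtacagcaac
USP53 exon 8, chr4:119256255-119256359, plus strand: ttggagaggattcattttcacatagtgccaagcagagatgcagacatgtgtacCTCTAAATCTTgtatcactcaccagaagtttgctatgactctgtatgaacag

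USP53 and its relative USP54 lie within the same group, and USP53 is known from tight junctions. USP53 had 13 and 14 peaks, with highest folds of 6.72 and 4.66. Its strongest peak, in exon 8 in replicate 1, where the stretch shown spans codons 128 to 162, overlapped a replicate 2 peak whose summit lay elsewhere. USP54 had 18 and 17 peaks with highest folds of 7.74 and 6.92, the highest mean of the family. The highest USP54 peaks of the replicates were in different exons, 22 and 17.

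The other members of this group had fewer or weaker peaks. USP31 had 12 and 11, with highest folds of 4.88 and 3.18, and USP38 had 8 and 11, with 4.09 and 4.45. USP40 had 5 and 6 peaks and USP25 had 6 and 3. USP48 had 2 and 4 peaks, USP47, known from base excision repair, 3 and 2, and USP35 1 and 1. USP11, USP43 and USP45 had none. A long CDS was thus not always accompanied by many peaks, as USP47 shows.

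Among the enzymes grouped under endosomes, membranes and signalling, 7 of 11 had peaks in both replicates, with 93 and 89 peaks. USP9X, which acts on many substrates including the survival factor MCL1, had 32 and 24 peaks. Its highest folds were 6.60 and 4.52, and 5 of its peaks in replicate 1 and 0 in replicate 2 had a q of at most 0.05. The replicate 1 peak of highest fold had its summit within 200 nt of the stop codon. USP8, which acts on receptors such as EGFR at endosomes, had 18 peaks in each replicate, 15 of which overlapped the other list, and 5 of q at most 0.05 in each. Summits lay in 17 of its 20 exons in each replicate and in 15 exons in both. USP32, a membrane-bound enzyme of the Golgi and endosomes, had 13 and 22 peaks with highest folds of 5.22 and 4.74. In USP9X and USP32, the CDS sites of highest fold more than 200 nt from the stop codon were these, each with a summit in both replicates.

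USP9X exon 39, chrX:41223243-41223382, plus strand: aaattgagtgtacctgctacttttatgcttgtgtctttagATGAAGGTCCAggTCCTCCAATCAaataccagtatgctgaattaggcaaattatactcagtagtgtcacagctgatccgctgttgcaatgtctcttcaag
USP32 exon 31, chr17:60183191-60183424, minus strand: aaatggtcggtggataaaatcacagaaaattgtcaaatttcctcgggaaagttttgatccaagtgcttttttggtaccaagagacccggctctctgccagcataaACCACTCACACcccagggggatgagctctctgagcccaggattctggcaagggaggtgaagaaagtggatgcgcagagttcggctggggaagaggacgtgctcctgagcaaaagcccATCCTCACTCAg

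In USP9X exon 39 the folds were 5.74 (q = 0.00144) and 3.02 (q = 1), and in USP32 exon 31 they were 5.22 (q = 0.00645) and 3.81 (q = 0.649). Neither site therefore passed the q limit in replicate 2. Smaller numbers were seen in the rest of the group. USP46 had 13 and 9 peaks and its close relative USP12 had 4 and 3. Both work with the partner protein WDR48. USP33, known for its action on the ROBO1 receptor, had 9 and 7 peaks, of which 2 overlapped in each list. USP15, which acts in TGF-β signalling, had 3 and 6, of which none overlapped. USP6, USP19 and USP9Y had none, and USP20 had 1 peak in replicate 1.

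Of the enzymes grouped under p53, DNA damage and the cell cycle, 7 of 9 had peaks in both replicates, with 58 and 49 peaks. A peak of q at most 0.05 in both was found in 0 of the 9. USP37, which acts on cyclin A, had 15 and 12 peaks with highest folds of 3.64 and 3.02, and 10 and 11 of them overlapped. USP42, which acts on p53, had 13 and 10 peaks, with highest folds of 3.83 and 3.38. USP28, which stabilizes MYC, had 11 and 10 peaks, but 3 overlapped in each list. USP7, the main deubiquitinase of MDM2 and p53, had 6 and 6 with highest folds of 3.24 and 4.08, and 2 overlapped in each. USP2 had 8 and 6, of which 4 and 3 summits also lay in exons of USP2-AS1. USP4 had 2 and 3, and USP10, which works with G3BP1, had 3 and 1. Many peaks in a gene and high folds thus did not always go together, since USP37 was among the 10 members with the most peaks while its mean highest fold was above that of 39.95% of the coding genes in both lists.

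The chromatin enzymes had peaks in both replicates in 4 of 8 cases, with 21 and 20 peaks. USP3, which acts on histone H2A, had 9 in each replicate, with highest folds of 4.47 and 3.96, of which 4 and 2 summits also lay in exons of USP3-AS1. USP22, the deubiquitinase of the SAGA complex, had 5 and 4 peaks with highest folds of 3.12 and 3.23. USP16 had 2 and 4. USP49 had 5 and 2, and all of them lay in exons of a second, unnamed gene as well. USP27X, USP44 and USP51 had none, and USP21 had 1 peak in replicate 2. USP27X and USP51 are close copies of USP22, as USP6 is in part of USP32 and USP9Y is of USP9X. How reads that match several places were treated is not given in the sources used here, so that the counts within these pairs are uncertain.

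Of the remaining groups, USP36, a nucleolar enzyme that acts on MYC, had 15 and 13 peaks with highest folds of 5.27 and 4.06. In exon 5 of USP36 the strongest peaks of the replicates covered the same place, with folds of 5.27 (q = 0.000948) and 4.06 (q = 0.0864). USP39, a splicing factor without protease activity, had 1 and 1, which did not overlap. USP30, the enzyme of the mitochondrial outer membrane that opposes mitophagy, had 9 and 11 peaks, of which 9 and 8 overlapped, and a density of 5.16 CDS summits per kb. In the group named after the proteasome and unanchored chains, 1 of 4 had peaks in both replicates. This was USP14, the deubiquitinase bound to the proteasome, with 5 and 1 peaks that did not overlap, while USP5, USP13 and USP26 had none. USP50 had 4 and 5 peaks, all of which lay in exons of USP8 too, so that no peak belongs to USP50 alone. USP6NL, in none of these groups, had 14 and 15 peaks, 12 overlapping in each list.

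A peak with a q of at most 0.05 was found in both replicates for 8 members, or 15.4%, compared with 4.93% of all protein-coding genes. They were USP34, USP8, USP54, USP6NL, USP53, USP24, USP32 and USP50. In 6 more, USP3, USP31, USP36, USP38, USP46 and USP9X, one list alone had such a peak. A fold of at least 5 in both replicates was found for 5 members (USP34, USP8, USP50, USP54 and USP6NL), or 9.62%, compared with 2.35%. USP50 is in both sets through peaks that also lie in exons of USP8, so those peaks count for USP8 and USP50 alike. USP6NL, in both sets too, encodes no protease. The shares for q and fold were not recomputed without these genes, and they were not matched for CDS length. The mean of the highest fold over replicates was above that of 98.9% of the 5619 coding genes in both lists for USP54, 98.2% for USP6NL, 97.7% for USP34 and 95.8% for USP8. At the lower end stood USP39 with 8.67% and USP35 with 1.58%. For the 35 genes, the log2 of the highest fold in replicate 1 went with that in replicate 2 (r = 0.858, rho = 0.836, across genes).

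**Figure D3:**
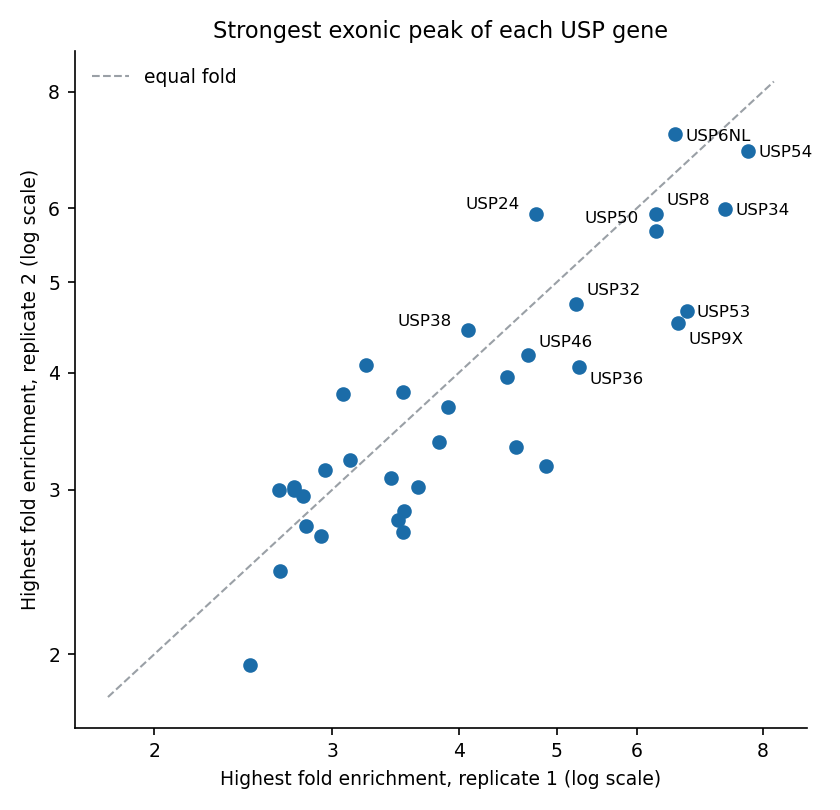
Highest fold enrichment among the exonic peaks of each of the 35 USP genes with a peak in both replicates, replicate 1 on the x axis and replicate 2 on the y axis, both on log scales, with a dashed line of equal fold. USP54, USP6NL, USP34, USP8 and USP50 lie above 5 in both, and USP9X and USP53 lie below the line with 6.60 and 6.72 in replicate 1.

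Among called peaks, those of USP mRNAs were close to those of other mRNAs in median fold and in the share passing the q limit. The median fold of USP peaks was 2.95 in replicate 1 and 2.93 in replicate 2, and peaks of all protein-coding genes had medians of 2.95 and 2.93. Signal below the caller's limit is not in the lists, so these medians do not cover it. The q was at most 0.05 in 43 USP peaks (11.7%) of replicate 1 and 28 (7.71%) of replicate 2, compared with 10.2% and 7.81% of all peaks on coding genes. A q of 1 was given to 226 and 236 of the USP peaks. The median of the highest fold per gene was 3.66 for the USP genes and 3.59 for coding genes in both lists, and the median number of peaks was 8 and 5. By these medians the USP genes differed from other genes more in the number of peaks than in their height.

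Of the USP peaks, 220 in replicate 1 and 225 in replicate 2 overlapped a peak of the other list by at least 1 bp, a mean of 61.0% ± 1.44 (SD, n = 2). Of all peaks on coding genes, 61.0% and 64.8% did. The median fold was 3.09 in overlapping and 2.81 in other USP peaks of replicate 1, and 3.001 and 2.866 in replicate 2. Of the USP peaks with a q of at most 0.05, 38 of 43 in replicate 1 overlapped some peak of replicate 2, and 15 of 28 in replicate 2 overlapped some peak of replicate 1.

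Within the mRNA, USP summits lay mainly in the coding sequence. Summits were sorted on the canonical coding transcript into the stop codon window, which reaches 200 nt to each side of that codon, and the 5′ UTR, CDS and 3′ UTR outside it. The CDS held 85.4% ± 1.23 (SD, n = 2 here and below) of USP summits and 46.3% of the length of the same mRNAs. For all protein-coding genes it held 72.0% ± 1.14 of summits and 41.0% of length. The 3′ UTR held 6.09% ± 1.90 of USP summits and 43.6% of length, compared with 15.9% ± 0.899 and 47.1% for all coding genes. The stop codon window held 4.72% ± 0.0463 of USP summits, compared with 8.43% ± 0.152, and the 5′ UTR 3.75% ± 0.625, compared with 3.69% ± 0.0864. The difference in the CDS share was larger than the spread between replicates, and no test was run on it.

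**Figure D4:**
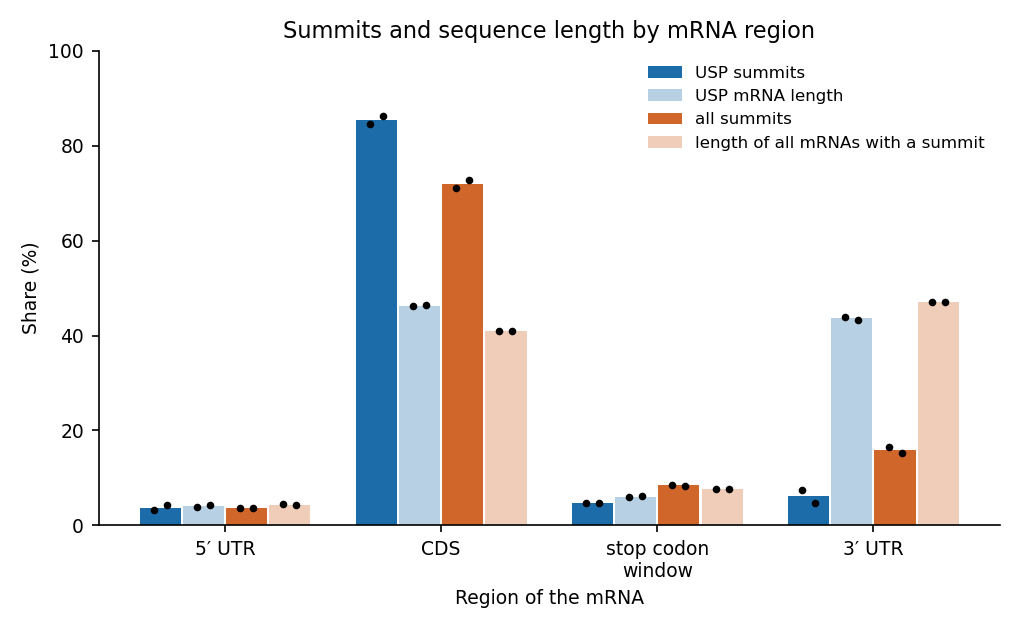
Share in percent (y axis) of summits and of mRNA length in each mRNA region (x axis), for USP genes and for all protein-coding genes, with bars for the mean of 2 replicates and points for each replicate. The CDS bar of USP summits reaches 85.4% and that of all summits 72.0%, and the 3′ UTR bars of summits (6.09% and 15.9%) are far below the bars of length (43.6% and 47.1%).

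Some members had a smaller share of their summits in the CDS. In USP12, 1 of 4 and 1 of 3 summits lay there. USP46 has a 3′ UTR of 6683 nt and a CDS of 1098 nt. Of its 13 and 9 summits, 6 and 4 lay in the CDS, 2 and 2 in the stop codon window and 4 and 2 in the 3′ UTR. Its short CDS still held a mean of 4.55 summits per kb. In USP8, with a 3′ UTR of 15336 nt, 15 summits of 18 lay in the CDS in each replicate, and 0 and 1 in the 3′ UTR. Along the CDS, USP summits were spread over its whole length. Cut into 4 equal parts from its start, the CDS held 23.03%, 28.7%, 25.6% and 22.7% in replicate 1 and 25.9%, 25.9%, 26.5% and 21.8% in replicate 2. For all coding genes the first part held 20.2% and 20.7% and the last 27.2% and 27.0%.

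The catalytic domain is the part the USP enzymes have in common, so the summits were set against it. In 46 of the 52 members a script found both the cysteine and the histidine box in the translated CDS. The catalytic span, from the first residue of the one to the last of the other, held 92 of 267 CDS summits in replicate 1 (34.5%) and 83 of 269 in replicate 2 (30.9%). It took 34.4% and 35.3% of the CDS length of the same mRNAs. Summits in the CDS were thus about as dense within the span as its length gives, at 2.69 and 2.31 per kb, as before it (2.89 and 2.98) and after it (2.44 and 2.63). In USP34, where the span is short, it held 5 of 53 and 6 of 57 CDS summits. In the 29 members with both boxes and peaks in both replicates, the codons of the cysteine box lay at least partly under a peak in 6 and 14 members. In 5 of them, USP4, USP8, USP34, USP38 and USP46, this was so in both lists. The histidine box did in 9 and 9 members and in both lists in USP8, USP24, USP34 and USP46. USP50, whose peaks all lay in exons of USP8 as well, is among the 29 members and among the 9 of replicate 2. Peaks covered 29.3% and 30.0% of the CDS bases of these members. The counts over boxes were added after values had been seen.

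**Figure D5:**
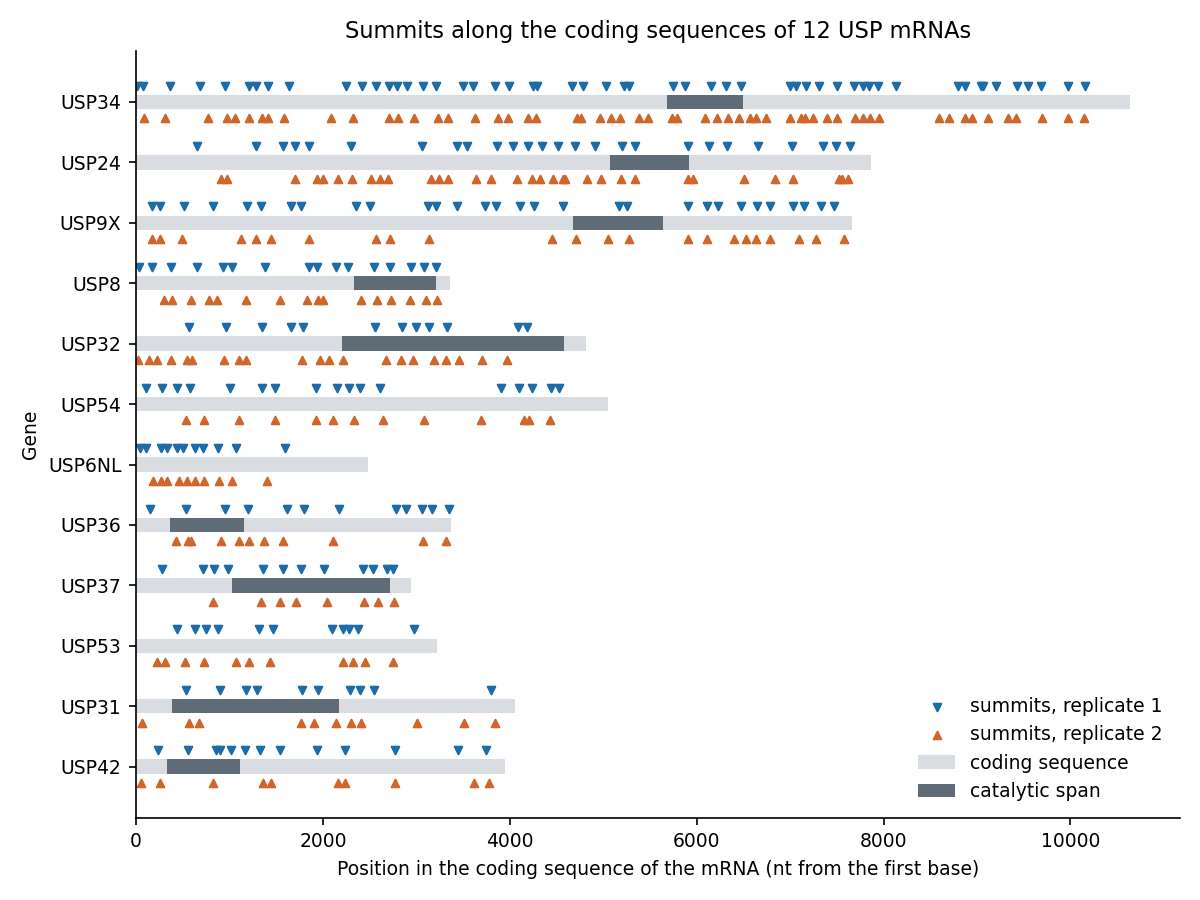
Position in nt from the first base of the coding sequence (x axis) of each summit in 12 USP mRNAs (y axis), with triangles above the bar for replicate 1 and below it for replicate 2, light bars for the coding sequence and dark bars for the catalytic span. Summits are spread over the length of the long coding sequences, and USP54, USP6NL and USP53 have no dark bar because no span was found.

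The extent of the peaks was then set beside that of the exons. Since a peak was counted for a member only with its summit in an exon, a high exonic share was fixed in part by that choice. Of the peak bases, 93.3% and 92.5% lay in exons of the member's canonical mRNA, and 60.0% and 59.4% of peaks lay wholly within exons. At least 1 end of the peak was within 20 nt of the end of the exon with the summit in 229 of 365 peaks of replicate 1 (62.7%) and 234 of 362 of replicate 2 (64.6%). No value for other genes was computed beside this share. Exons over 400 nt had fewer summits per coding length than shorter ones, 1.29 per kb and 3.26 per kb in replicate 1 and 1.08 and 3.30 in replicate 2. The share of coding bases under a peak was 39.1% in exons over 400 nt and 30.4% in shorter ones in replicate 1, and 33.3% and 32.2% in replicate 2. Long exons thus had fewer summits per kb but no smaller share of coding bases under peaks. Bases were also counted under peaks whose summit lay in a UTR. The last exon of USP6NL, with 1406 coding nt, had 1 summit in each replicate but 98.9% and 97.9% of its coding bases under peaks. Exon 20 of USP54, with 1373 nt, had 1 and 2 summits and 99.3% and 72.1% of bases under peaks. The 1356 coding nt of USP49 exon 4 and the 1041 nt of USP10 exon 4 had no base under a peak in either list. These exon comparisons were added after values had been seen. The number of peaks in a gene also went with its number of exons, with r = 0.812 and rho = 0.416 across the 39 genes, and r = 0.267 without the top 3.

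Base composition and short motifs were at similar levels around the summits and in all windows of the same coding sequences, the summit windows included. The median GC content of windows of 101 nt around CDS summits was 43.56% in both replicates, the same as in all windows of these CDS. TGGAC, the DNA form of UGGAC, was in 11.4% and 14.2% of summit windows, compared with 12.1% and 12.3% of all windows. GGAC, which TGGAC contains, was in 31.9% and 30.0%, compared with 31.5% and 31.7%. ACACA was in 12.9% and 13.9%, compared with 11.4% and 11.7%. CACTC was in 8.83% and 8.52%, compared with 7.43% and 7.78%. Motifs were searched on the mRNA strand alone.

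Other genes of the ubiquitin system were taken from a list of 77. Peaks in both replicates were found in 34 of them, in one replicate in 12 and in neither in 31. The share in both was 44.2%, compared with the 28.0% of all protein-coding genes. The list held 43 genes of other deubiquitinase families or with the USP fold but no USP number. Of these, 19 had peaks in both (44.2%) and 18 in neither. They were listed by family and not by known activity, so that not each of them need be an active deubiquitinase. The families are small, and their counts are given as a description. Of the UCH family 0 of 4 had peaks in both, of the OTU family 8 of 16, of the JAMM family 5 of 12, and of the MINDY family with ZUP1 4 of 5. Of the proteases of SUMO and NEDD8, 5 of 7 had peaks in both.

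A q of at most 0.05 in both replicates was found for 5 genes of the list, or 6.49%, which is near the 4.93% of all protein-coding genes. These 5 are given by their values. SENP1, a SUMO protease, had 19 and 18 peaks with highest folds of 7.16 and 5.35. UBA6, an E1 enzyme of ubiquitin, had 20 and 17 peaks, whereas UBA1, the main E1, had none. OTUD4 had 18 and 14. STAM, the endosomal partner of USP8, had 10 and 11 peaks with highest folds of 5.97 and 7.67. ATXN7, the subunit that holds the deubiquitinase module with USP22 in SAGA, had 10 and 11, of which 7 in each list had a q of at most 0.05, whereas ATXN7L3 of the same module had none. Of the partners of USP1, USP12 and USP46, WDR48 had 2 and 5 peaks and WDR20 had 3 and 0. G3BP1, the partner of USP10, had 6 and 0.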

How the data were processed

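RIP-seq libraries of OE-19 cells were made by the authors with a directional kit. The 2 IGF2BP3 RIP peak lists were analysed, of 4 samples. The study's methods name Tophat2 with hg38 and MACS2 at default settings, whereas the submitters' processing notes name fastp, HISAT2 and MACS2. The lists hold USP peaks with a caller's p as high as 0.00999. A q of at most 0.05 was given to 43 of 367 and 28 of 363 USP peaks, so the lists were not cut at that q. Which limit was used is not known from them. Versions and the caller's control library are not given in the sources used here, and peaks were called per sample. The deposited score, the deposited fold (a ratio of RIP signal to background), the deposited −log10 p-value and −log10 q-value were used as given, to describe, rank or filter peaks. The deposited summit offset was added to the start. Read depth is not known from peak lists, and counting error is therefore not given. Only coordinates and the caller's values came from the lists.

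Exons and canonical transcripts were those of GENCODE 44 (GRCh38). Strand was ignored. A summit in exons of several genes counted for each member. Of all summits, 95.7% and 96.1% lay in exons. Positions within mRNAs used summits on exactly 1 coding mRNA. The catalytic span ran from the cysteine box (16 residues) to the histidine box, found by sequence patterns in the translated CDS. Windows for GC and motifs held 101 nt. No test was run, since no input list was analysed. Values are given per replicate or as mean and SD. Named genes were the 8 with the most peaks, the 8 with the highest mean of the highest fold, those with a q of at most 0.05 in both replicates and a fixed list of known enzymes, with all others given by count. The members, lists and groups were chosen with earlier results of these data known, CACTC among them. Some genes of the list of other ubiquitin genes are not reported here by name or family. The sequences shown were chosen after the sites had been seen. Position and overlap code was tested on simulated data. Alternatives were limits on q, p and fold, other overlap, gene and transcript rules, other windows and leaving out a replicate or USP34. Python 3.11.15, pandas 2.3.3, numpy 2.4.6, scipy 1.17.1, biopython 1.88 and matplotlib 3.10.9 were used.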

Additional observations from a re-analysis of the deposited data

Results flagged for a closer look

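Some peaks had their summit in an intron and were left out of the comparisons, although such a peak can reach into an exon. Summits in introns of USP genes numbered 10 in replicate 1 and 7 in replicate 2, of which 3 and 1 overlapped a peak of the other replicate. Their highest folds were 3.69, in USP32 in replicate 1, and 3.07, in USP24 in replicate 2, and none had a q of at most 0.05. The USP32 peak overlapped a replicate 2 peak with its summit in exon 12 of USP32. A USP30 peak of replicate 2 likewise overlapped a replicate 1 peak with its summit in exon 12 of USP30. No control samples were analysed for these peaks, and their source was not tested.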

How the results depend on the processing

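No paired analysis was possible because no result came from a test. In the order USP genes in both replicates, peaks per replicate, percent overlapping, median fold, percent of summits in the CDS, in the 3′ UTR and in the stop codon window, and CDS summits per kb of CDS, the reported means were 35, 365, 61.0, 2.94, 85.4, 6.09, 4.72 and 1.94. The last, unlike the CDS percent, counts CDS summits within the stop codon window too, over the CDS of all 52 members. Outside that window, over USP mRNAs with a summit, the density was 2.78 per kb. The q limit of 0.05 in both lists gave 8, 35.5, 11.8, 5.10, 95.8, 1.19, 1.19 and 0.208. A p of at most 1e-05 gave 16, 61.0, 24.8, 4.63, 92.7, 1.54, 3.20 and 0.348. A fold of at least 5 gave 5, 19.5, 5.30, 5.62, 94.7, 0, 2.17 and 0.116. The percent of CDS summits in the catalytic span was 32.7 as reported, 24.7 with the q limit, 21.9 with the fold limit, 39.6 with the span widened by 50 residues on either side and 38.5 without USP34. As reported, the span took 34.4% and 35.3% of CDS length. That share was not computed for the alternatives, so their percentages cannot be read as more or fewer summits than length gives. Without USP34 the CDS share was 83.1% and the density 1.71 per kb. Summits in exons of exactly 1 gene gave a CDS share of 87.1%, a stop codon window of 4.44% and a density of 1.84. Overlap fell to 39.7% when 50% of both peaks had to be shared and to 40.6% with summits within 50 nt. The stop codon window held 1.94% when it was 100 nt on either side. The longest transcript gave 4.77% there and 1.93 summits per kb. Both replicates had 317 CDS summits, so the density had an SD of 0 and any change exceeds it. The causes of the changes were not tested. Without USP6NL and USP50, chosen after seeing the data, there were 33 genes, 350.5 peaks and a median fold of 2.94. Leaving out either replicate gave 363 to 367 peaks, a median fold of 2.93 to 2.95, CDS shares of 84.6% to 86.3%, 3′ UTR shares of 4.75% to 7.44% and span shares of 30.9% to 34.5%. Of 69 alternative values, 31 stayed within the spread between replicates (or, for counts, 1.5 times) and 38 did not. With 2 replicates, a value from either one alone always lies within that spread. The alternatives that left out a replicate therefore could not have come out otherwise. The number of genes and the sites thus depend on the limit set on q, and most peaks did not pass it.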
